A study of Homo sapiens with 2 samples.

Results

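Imprinted genes were examined for accessible chromatin in Saos-2 and U2OS, 2 established human osteosarcoma cell lines that were each profiled by DNase-seq in 1 library. The members were 38 listed genes of known imprinted domains, of which 37 were found by symbol or older symbol in a RefSeq gene table of 59679 genes. NESP55, which is a transcript of the GNAS locus, had no entry of its own and is covered by the GNAS span, and SLC22A18 is listed under its newer symbol SLC67A1. Each member was described by the DNase hotspots that overlapped its gene span extended by 10 kb on both sides. In both lines, isolated nuclei were briefly exposed to DNase I (3 min at 37 °C), an enzyme that cuts exposed DNA. The authors deposited 1 list of hotspots per line, called at a false discovery rate of 0.05, on hg38. The sample labels name no treatment or genotype, and only the cell line differs in them. The copy number of the loci in each line is not given either.

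A hotspot is a stretch of DNA with more DNase I cuts than its surroundings, as found where nucleosomes are displaced from promoters, enhancers and insulators. At an imprinted gene, the copies inherited from the mother and the father are used unequally. The mark that tells them apart is DNA methylation, placed in the germ line at a control region of each domain and kept afterwards on 1 parental copy. The methylated copy of a control region is typically closed and the other copy open, so a control region can be hypersensitive on a single parental chromosome. The hotspot lists do not separate parental copies and hold no methylation or expression values.

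With 1 library per line there is no replicate error and no test between the lines, and differences below compare these 2 libraries. The depth of the libraries is unknown from the lists. The Saos-2 list held 51556 hotspots and the U2OS list 63388, so 55.1% of all hotspots came from U2OS, and that share is the reference for the comparisons below. Each hotspot carries the authors' −log10 significance, which depends on depth. For many hotspots it is therefore also given as the percentage of its own list at or above that value (a rank of 1% is among the strongest sites of the list). Significances printed without a rank are not adjusted for depth. Intervals are 95% Wilson intervals and cover counting error only. Of 10 osteoblast lineage markers, 9 had a hotspot within 10 kb in both lines. All 5 blood and all 5 endothelial markers had one in both lines too, as did 4 of 5 epithelial markers, so hotspot presence in such windows does not check the cell type.

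Some member promoters held a hotspot in 1 line only, and the 6 with the most significant such hotspots are printed to show what these promoters are. Printed with them are 2 promoters with a hotspot in both lines. Each sequence is the 250 bases before an annotated transcription start, from RefSeq on GRCh38.p14, written 5′ to 3′ on the strand of the gene. Capitals mark the bases inside the hotspot of the line named here. The U2OS-only promoters were those of L3MBTL1 at chr20:43514191-43514440 (plus strand, the downstream of its 2 starts), IGF2R at chr6:159968832-159969081 (plus), MKRN3 at chr15:23565424-23565673 (plus), BLCAP at chr20:37527877-37528126 (minus) and the start shared by SNRPN and SNURF at chr15:24954737-24954986 (plus). The Saos-2-only promoter was that of GRB10 at chr7:50792875-50793124 (minus, the second most upstream of its 5 starts). The promoters called in both lines were those of UBE3A at chr15:25439057-25439306 (minus) and a downstream start of SNRPN at chr15:24956050-24956299 (plus), with capitals for U2OS. At the SNRPN start the Saos-2 call measured only 68 bp, with a significance of 1.83 (rank 90.1%).
L3MBTL1: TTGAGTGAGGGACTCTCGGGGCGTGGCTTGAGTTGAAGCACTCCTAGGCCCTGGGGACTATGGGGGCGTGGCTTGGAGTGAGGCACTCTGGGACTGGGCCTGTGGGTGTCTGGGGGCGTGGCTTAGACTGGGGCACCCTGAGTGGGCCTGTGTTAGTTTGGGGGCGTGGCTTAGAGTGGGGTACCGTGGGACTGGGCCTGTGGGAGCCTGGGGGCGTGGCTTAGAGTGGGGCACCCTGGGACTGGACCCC
IGF2R: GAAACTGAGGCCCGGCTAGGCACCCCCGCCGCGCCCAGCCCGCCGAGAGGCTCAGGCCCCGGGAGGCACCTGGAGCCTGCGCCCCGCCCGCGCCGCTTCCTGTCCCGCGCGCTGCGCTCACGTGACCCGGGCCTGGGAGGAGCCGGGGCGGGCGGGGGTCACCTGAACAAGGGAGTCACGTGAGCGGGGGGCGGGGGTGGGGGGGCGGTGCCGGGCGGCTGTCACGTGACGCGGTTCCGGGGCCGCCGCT
MKRN3: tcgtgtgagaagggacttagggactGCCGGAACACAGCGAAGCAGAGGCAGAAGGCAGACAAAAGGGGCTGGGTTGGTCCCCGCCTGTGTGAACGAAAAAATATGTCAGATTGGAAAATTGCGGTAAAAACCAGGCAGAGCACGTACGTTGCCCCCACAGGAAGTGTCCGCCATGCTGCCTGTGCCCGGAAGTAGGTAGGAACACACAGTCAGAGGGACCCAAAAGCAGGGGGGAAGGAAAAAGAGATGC
BLCAP: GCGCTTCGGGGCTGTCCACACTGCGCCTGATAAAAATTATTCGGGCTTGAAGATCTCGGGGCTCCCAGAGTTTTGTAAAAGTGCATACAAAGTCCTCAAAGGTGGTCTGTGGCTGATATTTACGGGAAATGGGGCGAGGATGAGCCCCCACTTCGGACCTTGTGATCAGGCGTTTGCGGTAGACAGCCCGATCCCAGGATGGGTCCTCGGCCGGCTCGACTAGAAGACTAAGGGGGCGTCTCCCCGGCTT
SNRPN and SNURF shared start: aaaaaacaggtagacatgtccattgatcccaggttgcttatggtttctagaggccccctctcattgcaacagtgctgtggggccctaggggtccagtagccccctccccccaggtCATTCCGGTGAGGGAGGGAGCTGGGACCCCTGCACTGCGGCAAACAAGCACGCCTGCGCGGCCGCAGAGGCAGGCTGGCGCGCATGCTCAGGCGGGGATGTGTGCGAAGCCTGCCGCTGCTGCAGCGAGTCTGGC
GRB10: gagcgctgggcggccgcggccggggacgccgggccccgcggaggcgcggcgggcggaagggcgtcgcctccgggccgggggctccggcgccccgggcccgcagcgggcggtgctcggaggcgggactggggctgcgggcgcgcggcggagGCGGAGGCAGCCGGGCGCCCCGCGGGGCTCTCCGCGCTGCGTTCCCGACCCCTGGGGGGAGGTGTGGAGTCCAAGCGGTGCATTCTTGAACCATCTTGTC
UBE3A: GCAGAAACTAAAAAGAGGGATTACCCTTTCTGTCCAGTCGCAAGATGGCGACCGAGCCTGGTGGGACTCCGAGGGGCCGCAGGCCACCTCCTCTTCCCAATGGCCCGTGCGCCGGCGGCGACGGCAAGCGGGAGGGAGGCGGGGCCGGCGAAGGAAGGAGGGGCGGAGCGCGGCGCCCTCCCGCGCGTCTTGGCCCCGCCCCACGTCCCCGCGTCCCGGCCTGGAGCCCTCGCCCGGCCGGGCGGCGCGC
SNRPN downstream start: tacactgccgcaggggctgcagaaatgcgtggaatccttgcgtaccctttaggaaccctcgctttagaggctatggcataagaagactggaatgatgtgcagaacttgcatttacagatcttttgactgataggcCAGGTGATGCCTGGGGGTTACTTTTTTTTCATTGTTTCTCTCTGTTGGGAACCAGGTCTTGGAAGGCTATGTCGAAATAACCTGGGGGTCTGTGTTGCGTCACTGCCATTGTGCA

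The printed promoters were unlike in sequence. CpG dinucleotides, the sites of DNA methylation, numbered 7 in the 250 bases of L3MBTL1, 10 in MKRN3, 12 at the shared start of SNRPN and SNURF, 16 in BLCAP, 33 in IGF2R and 40 in GRB10. Among the promoters called in both lines there were 33 in UBE3A and 6 at the downstream start of SNRPN. The L3MBTL1 stretch is repetitive: the 12 letters GGGGCGTGGCTT, the word of that length most often repeated within 1 printed sequence and counted after the sequences had been read, occur 5 times in it. They occur at least once in the corresponding 250 bases of 23 of 35116 RefSeq promoters (0.0655%), and 5 or more times in L3MBTL1 alone. The IGF2R stretch holds the E-box letters CACGTG 3 times, also counted after reading. These letters occur at least once in 6.34% of those promoters and 3 or more times in 28 of them. An E-box is a short element bound by helix-loop-helix factors, and a match in letters is a description only.

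Across the members, 18 of 37 had a hotspot in Saos-2, where 50.8% of all RefSeq genes did, and 26 had one in U2OS, where 58.1% did. Both lines had a hotspot at 17 members (all genes: 44.7%), and neither line at 10 (35.7%). A hotspot in U2OS only was found at 9 members (13.5% of all genes) and in Saos-2 only at 1 member, KLF14 (6.14%). The U2OS-only members numbered 5 with gene spans alone and 5 with 50 kb, and none was Saos-2-only with gene spans alone, since CDKN1C, PHLDA2, DLK1, NNAT and KLF14 had hotspots only outside the gene. The median member spans 23737 bp, close to the 24115 bp of protein-coding genes, whereas the median over all RefSeq genes is 5512 bp. Of the 32 protein-coding members, 15 (46.9%) had a hotspot in Saos-2, where 74.8% of all protein-coding genes did, and 23 (71.9%) in U2OS, where 81.4% did. Both lines had one at 14 of the 32 (protein-coding genes: 70.5%), U2OS only at 9 (10.9%), Saos-2 only at 1 (4.23%) and neither at 8 (14.4%). Neighbouring members share hotspots, so these counts are not independent.

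Measured as covered bases, the median member had none in Saos-2 (0 bp) but 480 bp in U2OS, and the corresponding medians over all protein-coding genes were 424 and 532 bp. The median difference, U2OS minus Saos-2, was 115 bp over the members, 0 bp over all genes and 28 bp over protein-coding genes. The members' difference was 51 bp when both lists were limited to the same number of hotspots, and 0 bp with gene spans alone. A member was called higher in a line when it was covered 2-fold or more, or only, in that line. By this rule 15 of 37 members (40.5%) were higher in U2OS, where 22.5% of all genes were, and 2 members (5.41%), COPG2 and KLF14, were higher in Saos-2, where 10.7% were. Among the protein-coding members the calls were 14 and 2, beside 24.3% and 10.8% of protein-coding genes. A 2-fold difference with both lines covered was found towards U2OS at 6 members, SNRPN, SNURF, L3MBTL1, PLAGL1, HYMAI and TRAPPC9 (8.98% of all genes), of which 5 are protein-coding (13.4% of protein-coding genes). Towards Saos-2 it was found at 1 member, COPG2 (4.58% of all genes and 6.54% of protein-coding genes). The 15 members called higher in U2OS lie at 9 loci, and some calls rest on the same hotspots, because SNRPN and SNURF, PLAGL1 and HYMAI, BLCAP and NNAT, and PEG3 and ZIM2 overlap.

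**Figure D1:**
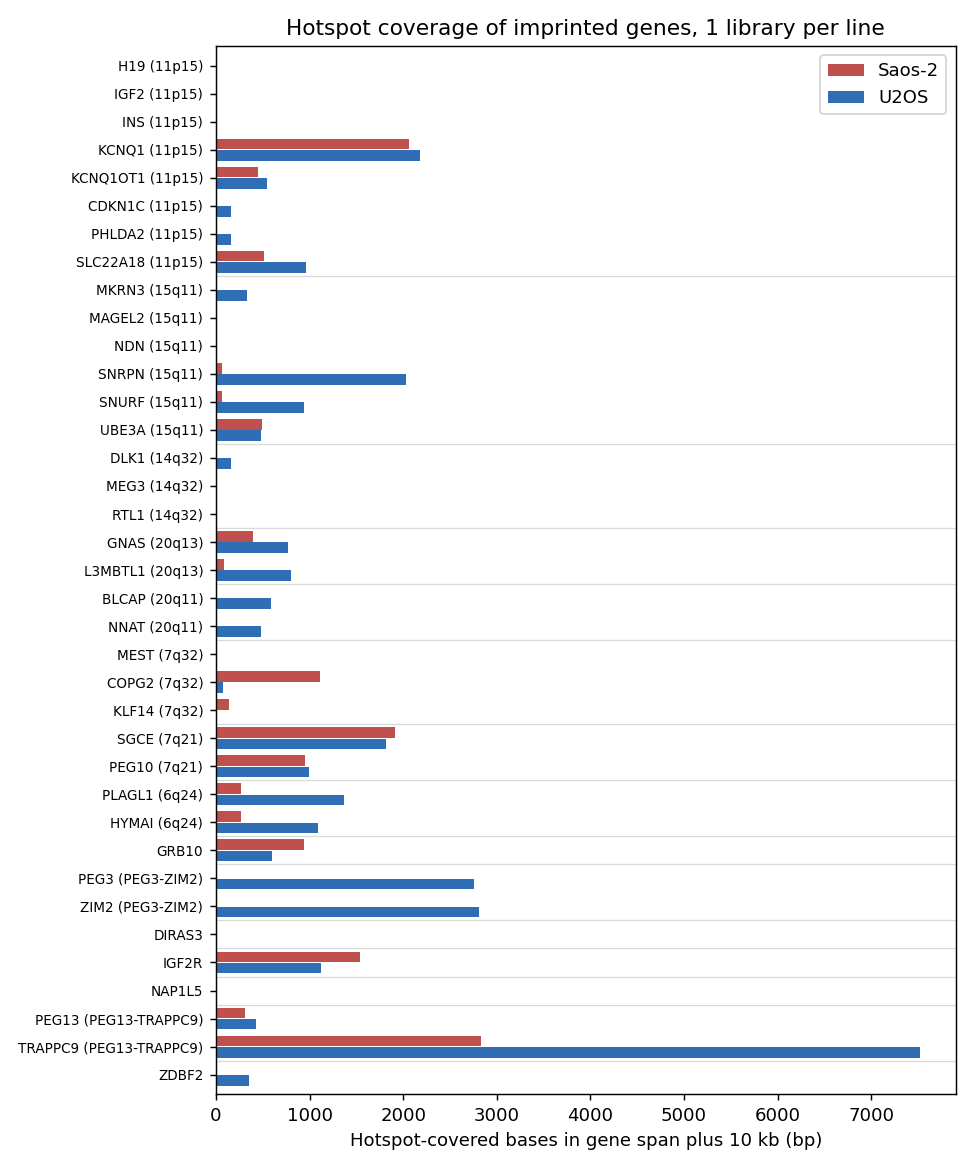
Hotspot-covered bases (bp) within the gene span plus 10 kb for each of the 37 members, ordered by imprinted domain, with 1 bar per line and 1 library per line. TRAPPC9 has the most covered bases in both lines, PEG3 and ZIM2 are covered in U2OS only, and COPG2 is covered mainly in Saos-2.

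Counted once each, 47 Saos-2 and 79 U2OS hotspots lay at the members. U2OS thus contributed 62.7% of them (interval 54.0 to 70.6%), compared with 54.6% of the hotspots at all genes. Of the 47 Saos-2 hotspots, 27 (57.4%, 43.3 to 70.5%) were overlapped by a U2OS hotspot by at least 1 bp, beside 59.6% for Saos-2 hotspots at all genes. Of the 79 U2OS hotspots, 28 (35.4%, 25.8 to 46.4%) were overlapped by Saos-2, beside 49.2% for U2OS hotspots at all genes. The median member hotspot measured 201 bp (Saos-2) or 253 bp (U2OS), beside 238 and 248 bp over the whole lists. The median significance at the members was 3.44 in Saos-2 and 4.79 in U2OS, beside 4.05 and 4.60 in the whole lists. Among the strongest 10% of their list were 2 Saos-2 and 8 U2OS member hotspots.

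The loci were then compared one by one, with the members of a domain pooled. The pooled 20q13 is not a single stretch: L3MBTL1 begins at 43507697 and GNAS at 58839748 of chromosome 20. Its whole interval holds 1089 hotspots of both lines, beside 8 in the member windows. Of 15 loci, 9 had hotspots in both lines, 4 (14q32, 20q11, PEG3-ZIM2 and ZDBF2) in U2OS only, and 2 (DIRAS3 and NAP1L5) in neither. Covered bases were higher in U2OS at 9 loci and in Saos-2 at 4 loci (7q32, 7q21, GRB10 and IGF2R). The interval of the U2OS share included the 55.1% of the whole lists at every locus with hotspots except PEG3-ZIM2 (56.6 to 100%). That exception rests on 5 hotspots, 4 of them adjacent, and its interval included 55.1% with equal lists, with gene spans alone and with hotspots of at least 200 bp (from 51.0% in each), and with the top 50% of each list (from 43.9%).

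**Figure D2:**
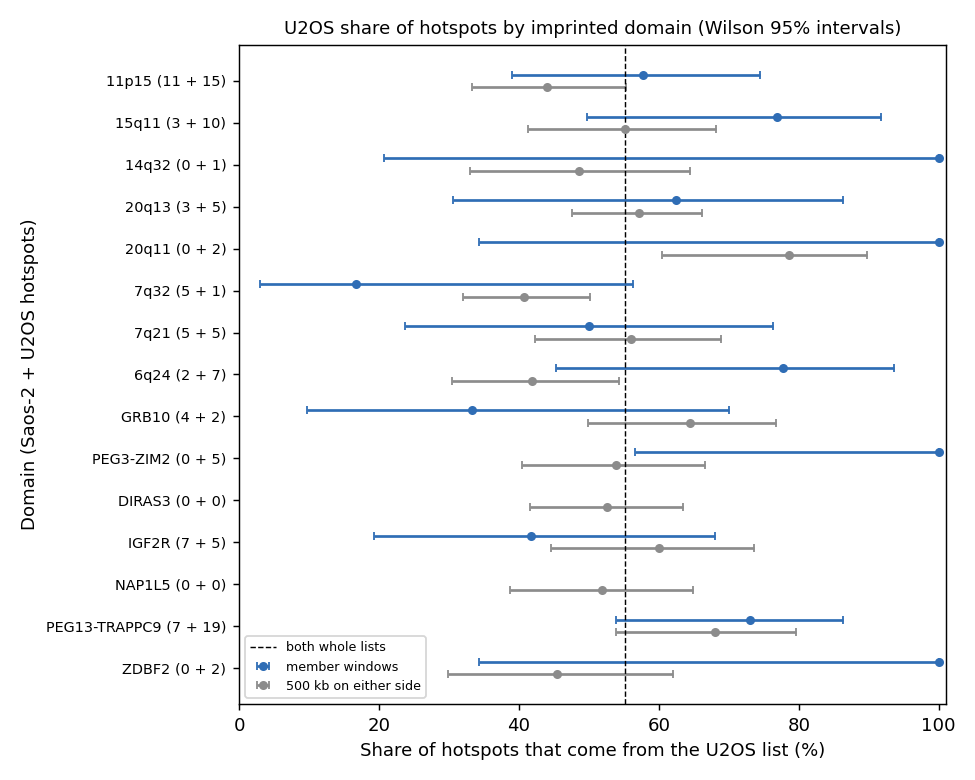
Share of hotspots that came from the U2OS list (%) at each imprinted locus (blue) and in the 500 kb on either side of the member windows (grey), with 95% Wilson intervals for counting error and hotspot numbers on the axis. The dashed line marks the 55.1% of the whole lists; PEG3-ZIM2 lies at 100%, 7q32 at 16.7%, and the blue intervals include the line except at PEG3-ZIM2, where 5 hotspots give an interval from 56.6% that reaches below the line under other settings.

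PEG3, a zinc finger gene expressed from the paternal copy, and ZIM2, which shares its first exons, had the most covered bases of the members without a Saos-2 hotspot. No Saos-2 hotspot lay in their windows, and the nearest was 123 kb from PEG3. U2OS had 4 hotspots at PEG3 and 5 at ZIM2, with 2752 and 2805 covered bp. The 4 hotspots lie side by side on chromosome 19 between 56837063 and 56840934, where the uppermost spans the upper-coordinate end that the genes share and the others lie up to 3.66 kb inside it. The widest of them, at 56838763 to 56840044, measured 1282 bp with a significance of 26.8 (rank 3.79%), and the others had 10.3, 7.45 and 3.11. Within 500 kb on either side, Saos-2 had 24 hotspots and U2OS 28 (53.8% from U2OS, interval 40.5 to 66.7%). The lack of Saos-2 hotspots held for the gene spans alone and for windows of 50 kb.

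The 15q11 domain had 3 Saos-2 and 10 U2OS hotspots. Its paternally expressed genes are lost in Prader-Willi syndrome, and the maternal copy of its UBE3A is lost in Angelman syndrome. MKRN3, encoding a ubiquitin ligase, had no Saos-2 hotspot within 38.2 kb. In U2OS it had a single hotspot of 334 bp across its start, at 23565449 to 23565782 on chromosome 15, with a significance of 8.37 (rank 27.9%). MAGEL2 and NDN, both of the MAGE family, had none in either line: the nearest Saos-2 and U2OS hotspots were 37.0 and 77.8 kb from MAGEL2 and 78.8 and 119.6 kb from NDN.

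SNRPN, which encodes a splicing protein, and SNURF, read from the same transcript, had 1 Saos-2 hotspot of 68 bp. SNRPN had 8 U2OS hotspots with 2030 covered bp, which is 29.9-fold as many bases, and SNURF had 2 with 945 bp. The start shared by SNRPN and SNURF, printed above, lay in a U2OS hotspot with a significance of 3.91 and in no Saos-2 hotspot. At 1.20 to 1.87 kb downstream of this shared start, U2OS had a hotspot of 670 bp with a significance of 16.2 (rank 10.97%). The 68 bp in Saos-2 fell within it with a significance of 1.83 (rank 90.1%). Both lines were therefore called at this position, at very different ranks. A further 6 U2OS hotspots lay upstream of the shared start, between 24818570 and 24861294, at least 94.99 kb from any Saos-2 hotspot. All but the lowest-coordinate hotspot among them lay inside SNRPN, whose span begins at 24823637. The strongest was at 24859186 to 24859560 (significance 12.5, rank 16.5%). The promoter windows of the SNRPN starts at 24856571 and 24862972 held no hotspot in either line. UBE3A, a ubiquitin ligase, was the contrast: its start was covered by 427 bp in Saos-2 (significance 7.64) and 480 bp in U2OS (14.2), and its covered bases in the whole window were 489 and 480. A Saos-2 hotspot of 62 bp inside UBE3A, at 25368929 to 25368990, had no counterpart (1.59). The 500 kb around the domain's windows held 22 Saos-2 and 27 U2OS hotspots.

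At 6q24, PLAGL1 encodes a zinc finger factor and HYMAI is a noncoding RNA that begins at the same imprinted start. PLAGL1 had 2 Saos-2 hotspots with 267 covered bp and 7 U2OS hotspots with 1366 bp, a ratio of 5.12, and HYMAI 267 and 1092 bp. Around the shared start, at position 144008259 of chromosome 6, U2OS had a row of 4 hotspots from just upstream of it to 1.60 kb inside HYMAI. The innermost was the strongest (144006657 to 144006966, significance 13.2, rank 15.2%). Saos-2 had a single call in that stretch, of 80 bp, inside the innermost U2OS hotspot and with a significance of 1.64 (rank 95.2%). The strongest of the row without counterpart was at 144007231 to 144007461 (5.55). A hotspot further upstream but still within PLAGL1, at 144013515 to 144013701 in Saos-2, was called in both lines, with significances of 2.99 and 3.95. The most upstream start of PLAGL1 had 2 U2OS hotspots within 1 kb, with significances of 2.54 and 2.53. In the surrounding 500 kb the balance was the opposite, with 36 Saos-2 and 26 U2OS hotspots.

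On chromosome 20, L3MBTL1, a reader of methylated histones, had the most significant member hotspot without counterpart in the other line. The U2OS hotspot at 43513917 to 43514587 measured 671 bp with a significance of 40.1 (rank 1.14%) and covered the downstream start and the repetitive stretch printed above. The upstream start of L3MBTL1, with 35 CpG in its 300-base window against 9 at the downstream start, held no hotspot in either line. Saos-2 had a single hotspot of 82 bp in the gene, with a significance of 1.82. GNAS, which encodes a stimulatory G protein alpha subunit and, from upstream starts, NESP55 and other transcripts, had 2 Saos-2 hotspots with 401 bp and 3 U2OS hotspots with 772 bp. The promoter window of the most upstream of its 6 starts, which is that of NESP55, held a Saos-2 hotspot of 85 bp (significance 2.12) and no U2OS hotspot. The nearest Saos-2 hotspot to the U2OS hotspot at 58850829 to 58851132 (significance 13.6) lay 11.2 kb away, and a hotspot near the 3′ end was called in both lines (7.33 and 13.98).

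BLCAP and NNAT at 20q11 are nested: NNAT, a membrane proteolipid gene expressed from the paternal copy in brain, lies in an intron of BLCAP. Neither had a Saos-2 hotspot. In U2OS the BLCAP start lay in a hotspot of 486 bp (37527770 to 37528255, significance 6.14, rank 38.7%), which also fell in the NNAT window, and BLCAP had a further one of 106 bp. The nearest Saos-2 hotspot was 166 kb from BLCAP, and within 500 kb on either side Saos-2 had 6 hotspots and U2OS 22 (78.6%, interval 60.5 to 89.8%). The scarcity of Saos-2 hotspots thus extended beyond the imprinted genes here. ZDBF2 on chromosome 2, a zinc finger gene expressed from the paternal copy, had 2 U2OS hotspots with 355 bp and none in Saos-2. The first, at 206274623 to 206274809, covered its most upstream start, and both were weak, with a significance of 2.56. Neither was in the top 50% of the U2OS list. Its surroundings held 18 Saos-2 and 15 U2OS hotspots.

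**Figure D3:**
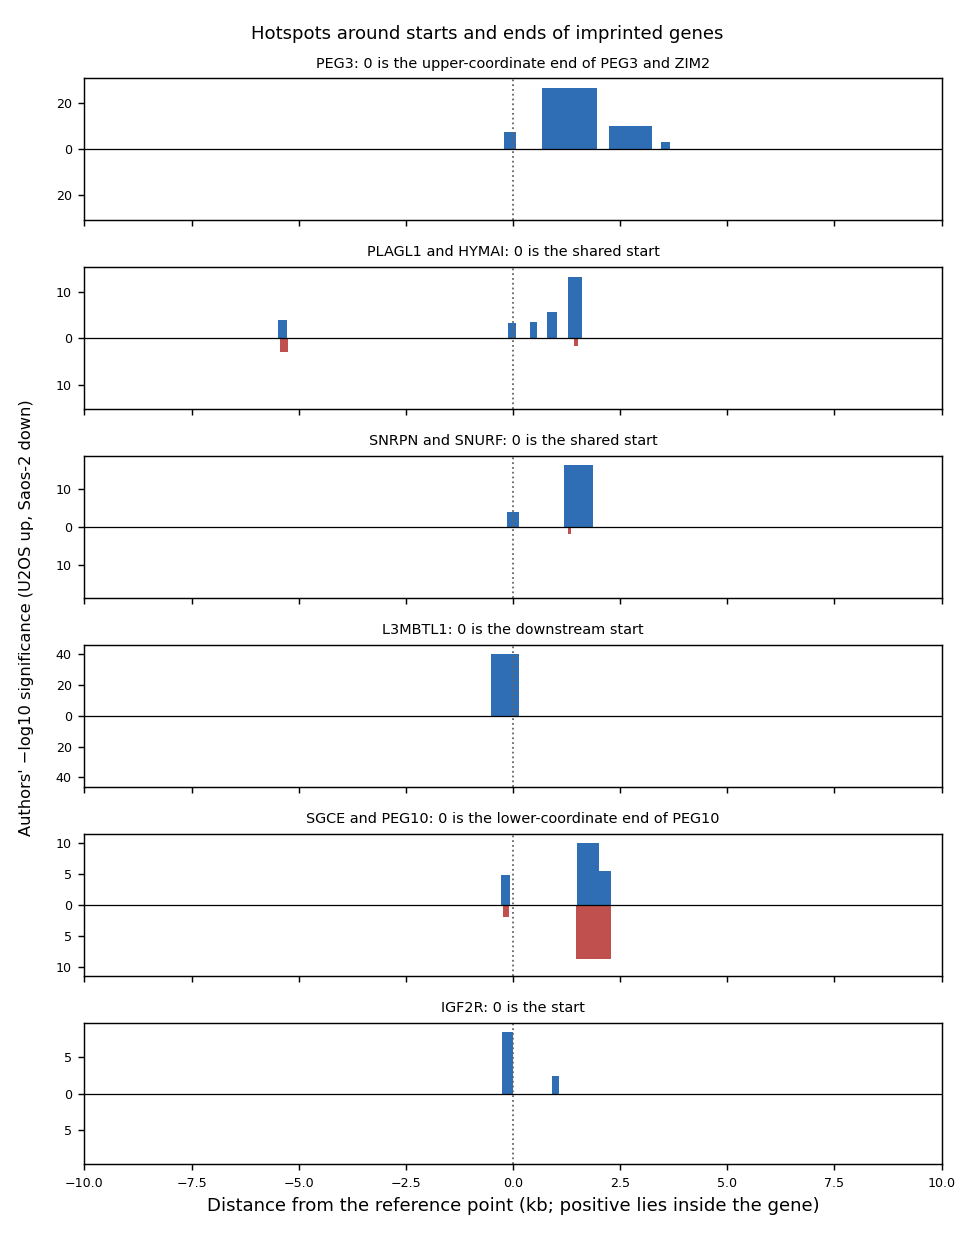
Hotspots within 10 kb of a start or gene end at 6 imprinted loci, with distance in kb and the authors' −log10 significance, U2OS above and Saos-2 below the line. Each panel has its own scale. Positive distances run into the gene from the reference point. Negative distances can also lie inside a gene, where the reference is a downstream or shared start (L3MBTL1, PLAGL1, SNRPN) or borders SGCE. U2OS hotspots sit at or just to the positive side of the reference point at PEG3, PLAGL1 and HYMAI, SNRPN and SNURF, L3MBTL1 and IGF2R. Saos-2 hotspots appear in the panels of PLAGL1 and HYMAI, SNRPN and SNURF, and SGCE and PEG10. Not drawn are the starts called in Saos-2 only, at GRB10 and GNAS, and the starts of UBE3A, COPG2 and SLC22A18 called in both lines.

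At 7q21 both lines were called at nearly the same sites. SGCE, a sarcoglycan gene mutated in myoclonus dystonia, and PEG10, derived from a retrotransposon, are neighbours expressed from the paternal copy. SGCE had 5 hotspots in each line, covering 1913 bp (Saos-2) and 1813 bp (U2OS), and PEG10 had 948 and 999 bp. In both lines a hotspot across the upper-coordinate end of SGCE covered part of the interval between the genes (significance 2.03 and 4.73). Both lines were also called at a site 1.48 to 2.29 kb inside PEG10, as 1 hotspot of 807 bp in Saos-2 and as 2 in U2OS. Inside SGCE, the hotspot at 94620659 to 94621204 on chromosome 7 was the most significant member hotspot in Saos-2, at 47.3 (rank 0.281%). Its U2OS counterpart had a significance of 30.8 (rank 2.55%). Of the 5 U2OS hotspots all were overlapped, and of the 5 Saos-2 hotspots 4 were, the exception being at 94632474 to 94632649 in SGCE (2.20).

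At 7q32 the balance leaned to Saos-2, with 5 hotspots against 1. COPG2, a coatomer subunit gene, had 4 Saos-2 hotspots with 1108 bp and 1 U2OS hotspot with 80 bp, a ratio of 13.9 towards Saos-2. Of the Saos-2 hotspots, 3 lay inside the gene without counterpart, the strongest at 130648980 to 130649290 with a significance of 7.46 (rank 25.7%). The COPG2 start was called in both lines (2.78 and 1.78). KLF14, an intronless gene of a Krüppel-like factor expressed from the maternal copy, had 1 Saos-2 hotspot 8.53 kb away and none within 24.4 kb in U2OS. MEST, expressed from the paternal copy and the namesake of the domain's control region, had no hotspot in either line, the nearest lying 44.8 kb away in both, and its 5 promoter windows hold between 13 and 25 CpG. The surrounding 500 kb also leaned to Saos-2, with 64 hotspots against 44 (40.7% from U2OS, interval 31.9 to 50.2%).

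In the 11p15 domain, a region altered in Beckwith-Wiedemann syndrome, 11 Saos-2 and 15 U2OS hotspots were called, and none of them lay at its telomeric part. H19, a noncoding RNA expressed from the maternal copy, IGF2, a fetal growth factor expressed from the paternal copy, and INS had no hotspot within 10 kb in either line. The nearest hotspots were 51.0 and 50.8 kb from H19, 26.1 and 26.2 kb from IGF2 and 14.5 and 14.6 kb from INS, in Saos-2 and U2OS respectively. The H19 window extends 10 kb upstream of its start and so takes in the insulator region between H19 and IGF2 that binds CTCF on the unmethylated copy; no hotspot was called there.

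The centromeric part of 11p15 was called in both lines. KCNQ1, a potassium channel gene of 404 kb, had 8 Saos-2 hotspots with 2066 bp and 10 U2OS hotspots with 2181 bp. KCNQ1OT1, an antisense RNA that starts inside KCNQ1 at the control region, had a hotspot across its upper-coordinate end in Saos-2 (2699954 to 2700318, significance 7.87) and 1 just beyond it in U2OS (2700016 to 2700306, significance 4.82). The 2 calls overlapped by 291 bp. The strongest U2OS hotspot of the domain, at 2752355 to 2752693 in KCNQ1, had a significance of 12.9 (rank 15.8%), and the Saos-2 hotspot inside it had 2.07 (rank 84.1%). The strongest in Saos-2, at 2533760 to 2534087, had 9.80 (rank 17.7%) against 5.84 in U2OS (rank 40.6%). The strongest without counterpart, both in KCNQ1, were at 2769128 to 2769408 in U2OS (7.61) and at 2730920 to 2731423 in Saos-2 (4.59). CDKN1C, a cyclin-dependent kinase inhibitor, and PHLDA2, a regulator of placental growth, had 1 U2OS hotspot each, at 6.79 and 4.06 kb from the genes with significances of 1.81 and 2.73, and none in Saos-2; both U2OS hotspots also fall in the SLC22A18 window. SLC22A18, a transporter gene, had 3 Saos-2 and 5 U2OS hotspots, including 1 in each line that touches both of its promoter windows (2.30 and 4.39).

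Among the other loci, 14q32 was nearly empty. DLK1, a Notch-like transmembrane protein gene expressed from the paternal copy, had a single U2OS hotspot of 162 bp at 8.94 kb (significance 3.07). With gene spans alone 14q32 had no hotspot, and with 50 kb it had 6, of which 4 were from U2OS. The 500 kb around its windows held 18 Saos-2 and 17 U2OS hotspots. MEG3, a noncoding RNA expressed from the maternal copy, and RTL1, derived from a retrotransposon, had none, with the nearest Saos-2 and U2OS hotspots 133 and 64.4 kb from MEG3. DIRAS3 on chromosome 1, a RAS-related growth inhibitor, had its nearest hotspots at 58.4 and 62.4 kb, and NAP1L5 on chromosome 4 at 46.0 kb in both lines. Both loci lay in regions with calls in both lines: within 500 kb, DIRAS3 had 36 Saos-2 and 40 U2OS hotspots and NAP1L5 25 and 27. The 10 members without any hotspot were H19, IGF2, INS, MAGEL2, NDN, MEG3, RTL1, MEST, DIRAS3 and NAP1L5.

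GRB10, an adaptor of insulin signalling, had 4 Saos-2 hotspots with 936 bp and 2 U2OS hotspots with 597 bp. The printed GRB10 start lay in a Saos-2 hotspot of 182 bp with a significance of 3.24, and the nearest U2OS hotspot lay outside the GRB10 window, 19.9 kb from that hotspot. The strongest hotspot was shared, at 50664522 to 50664963 in Saos-2, with 10.1 in Saos-2 (rank 16.9%) and 11.8 in U2OS (rank 18.0%). The U2OS hotspot without counterpart was at 50633090 to 50633181 (1.83). IGF2R, the receptor that clears IGF2, had 7 Saos-2 hotspots with 1544 bp and 5 U2OS hotspots with 1124 bp. The IGF2R start lay in a U2OS hotspot with a significance of 8.43 and in no Saos-2 hotspot, the nearest being 10.3 kb away. A hotspot inside IGF2R at 160030087 to 160030555 was among the strongest of both lists, at 28.3 for Saos-2 (rank 1.64%) and 40.04 for U2OS (rank 1.16%). The strongest Saos-2 hotspot of IGF2R without counterpart was at 160014623 to 160014914 (rank 25.5%). IGF2R was thus open inside the gene in both lines and at its start in 1 of them.

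TRAPPC9, a trafficking complex gene of 731 kb on chromosome 8, and PEG13, a noncoding RNA within it that is expressed from the paternal copy, had 7 Saos-2 and 19 U2OS hotspots. Covered bases of TRAPPC9 were 2834 (Saos-2) and 7523 (U2OS), a ratio of 2.65. All but 1 of the 7 Saos-2 hotspots were overlapped, whereas 13 of the 19 U2OS hotspots were not, the strongest at 139990882 to 139991536 with a significance of 29.2 (rank 3.00%). The exception in Saos-2 was at 140159664 to 140159847 (3.75). The strongest Saos-2 hotspot was at 140464193 to 140465142, outside the gene (12.6), and its U2OS counterpart had 22.2. The site inside PEG13 was alike in position in the lines, at 140099010 to 140099315 in Saos-2 and 140099010 to 140099366 in U2OS. Its significance was 6.28 in Saos-2 (rank 31.7%) and 6.32 in U2OS (rank 37.7%). The surroundings leaned to U2OS as well, with 15 Saos-2 and 32 U2OS hotspots in 500 kb on either side (68.1%, interval 53.8 to 79.6%).

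Where the lines overlapped, significance was compared in 28 pairs of hotspots. U2OS had the higher value in 22 pairs and Saos-2 in 6, with medians of 9.92 and 5.95, and by rank in its own list U2OS was the stronger in 18. Over all 30625 overlapping pairs of the lists, U2OS had the higher significance in 62.6% and the higher rank in 55.6%, beside 78.6% and 64.3% of the member pairs, and the difference was not tested. The pairs farthest towards U2OS were those of SNRPN, PLAGL1 with HYMAI, KCNQ1 and TRAPPC9. The TRAPPC9 pair had 5.52 in Saos-2 and 27.7 in U2OS, at 140309589 to 140310431 in U2OS.

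**Figure D4:**
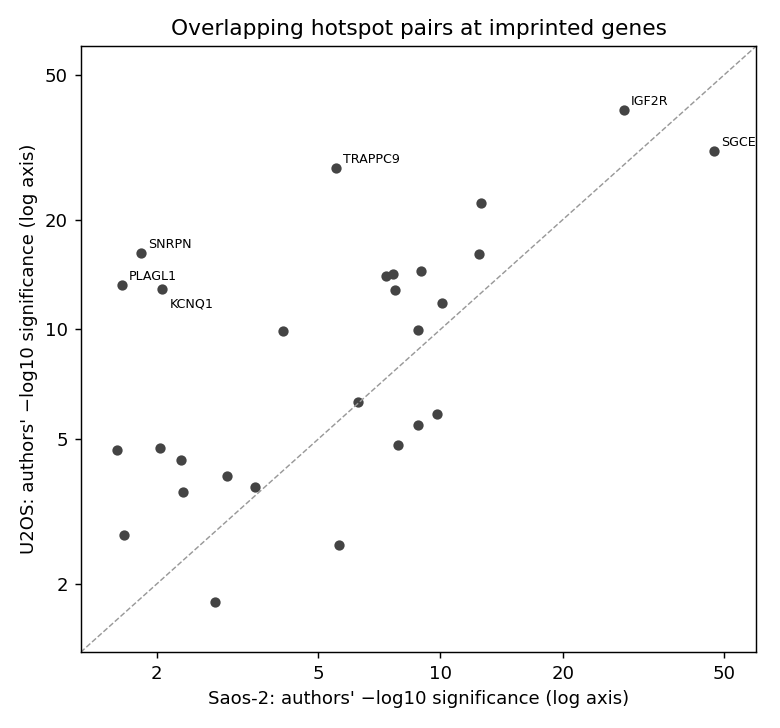
Authors' −log10 significance in Saos-2 and U2OS for the 28 overlapping hotspot pairs at imprinted genes, on log axes with the line of equality dashed; pairs above 25 in either line or differing more than 4-fold carry the gene's name. U2OS is higher in 22 pairs, and IGF2R and SGCE have high values in both lines.

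Promoter windows of 300 bases (250 before to 50 after a start) were given in the RefSeq table for 24 members, at 51 distinct positions. Hotspots lay on 8 of them in Saos-2 (30.8% of all 35116 promoter windows) and on 15 in U2OS (34.2%). Both lines had one on 6 (27.1%), Saos-2 only on 2 (3.61%) and U2OS only on 9 (7.04%). Neither line had one on 34 of the 51, beside 21843 of all 35116 windows. The members with a U2OS-only window were ZDBF2, PLAGL1, HYMAI, IGF2R, MKRN3, SNRPN, SNURF, BLCAP and L3MBTL1, and those with a Saos-2-only window were GRB10 and GNAS. Several starts of a gene share a hotspot, so windows are not independent.

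Sequence features of the members' promoter windows were then counted on both strands. The hexamer TGCCGC, the core recognised in methylated form by ZFP57, a factor that keeps imprints, occurred in 23 of 51 distinct member windows (45.1%) and in 16.7% of all windows. By gene, 17 of 24 members held it in at least 1 window, compared with 19.5% of all genes in the table, but members have more windows and more CpG. The median window held 19 CpG for the members and 14 for all promoters. The hexamer was in 8 of 17 member windows with a hotspot in either line (47.1%) and in 15 of 34 without (44.1%), where the shares over all promoter windows were 25.2% and 11.6%. These differences were not tested. The YY1 letters GCCATNTT occurred in 6 member windows (11.8%, all windows 6.58%), in BLCAP, PLAGL1, RTL1, SNRPN and UBE3A. The CTCF core motif occurred in none, and in 0.0655% of all windows, and windows of PEG3, KCNQ1OT1 and some other members were not in the table.

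Genes outside the list were counted with the same window. Of 47 other imprinted genes, 34 had a hotspot in both lines (72.3%), 4 in U2OS only (8.51%), 1 in Saos-2 only (2.13%) and 8 in neither (17.0%). The corresponding shares were 70.5%, 10.9%, 4.23% and 14.4% over protein-coding genes and 45.9%, 24.3%, 2.70% and 27.0% over the members. The median span of the 47 genes is 43733 bp, longer than the 24115 bp of protein-coding genes. The median difference in covered bases over the 47 genes was 0 bp, with 12 called higher in U2OS and 4 called higher in Saos-2. GNAS-AS1, for example, overlaps GNAS, so the lists are not independent. How many of the 47 genes share hotspots with members was not counted. Of 19 regulators of imprint maintenance, among them DNA methyltransferases and zinc finger factors, 14 had a hotspot in both lines, 3 in U2OS only, 0 in Saos-2 only and 2 in neither, and 6 were called higher in U2OS, 1 in Saos-2. The share called higher in U2OS was therefore 25.5% of the other imprinted genes and 31.6% of the regulators, beside 40.5% of the members and 24.3% of protein-coding genes. The difference between these shares was not tested.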

How the data were processed

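DNase-seq hotspots of Saos-2 and U2OS, 1 library each, were used as deposited by the authors: 1 list per sample, not pooled. Reads had been handled with Trimmomatic 0.38 and BWA 0.7.15 on hg38, per the submitters' processing notes; the hotspot caller and read filters are not given in the sources used here. The last column of the deposited lists was taken as −log10 of a p-value or false discovery rate: its lowest value of 1.30 is close to the −log10 of 0.05, and it ends at 100. The deposited score is a whole number within 0.5 of 10 times that value and was not used further. Depth is unknown.

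Hotspots were intersected with RefSeq gene spans of GRCh38.p14 plus 10 kb in Python 3.11.15 with pandas 2.3.3, statsmodels 0.14.6 (Wilson intervals) and matplotlib 3.10.9; overlap means at least 1 bp. Interval functions were tested on simulated data. The members and gene lists were chosen with earlier results of these data known. Hotspots named are, per locus, the most significant of each line, the most significant without counterpart, and those at member starts; others were named after their values were seen, as were the comparison with 500 kb on either side and the counts of repeated letters. The strand of members outside the promoter table is not given there. Alternatives were equal list lengths, the top 50% of each list, hotspots of at least 200 bp, merging below 150 bp, gene spans alone or plus 50 kb, 50% reciprocal overlap, whole domain intervals and 1 kb around starts.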

Additional observations from a re-analysis of the deposited data

How the results depend on the processing

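No paired analysis was possible because each line has 1 library, which also means that none could be left out. Of 138 recomputed values, 114 stayed within 1.5 times the reported count or inside its interval, 24 moved and 0 reversed. Only a U2OS share of a locus could count as reversed, if its interval excluded 50% and the alternative lay on the other side. This was possible only at PEG3-ZIM2 (interval from 56.6%) and PEG13-TRAPPC9 (from 53.9%), so the 0 says little about the other values. Point values near a reference did cross it: relative to 55.1%, the U2OS share at 11p15 went from 57.7% to between 51.2 and 54.5% under 4 settings, at 20q13 from 62.5% to 54.5% with 50 kb, and at 7q21 from 50% to 62.5% with the top 50% and with at least 200 bp and to 56.2% with 50 kb. At GRB10 it went from 33.3% to 53.8% with 50 kb. Members with a hotspot in both lines numbered 10 with the top 50% of each list, 11 with hotspots of at least 200 bp and 26 with 50 kb; those in Saos-2 only were 2 with equal lists and 0 with gene spans alone; those in U2OS only were 5 with gene spans alone and 5 with 50 kb. Member hotspots with the top 50%, at least 200 bp and 50 kb were 21, 26 and 75 in Saos-2 and 42, 51 and 119 in U2OS. The share of Saos-2 member hotspots overlapped was 71.4% with the top 50%. The median difference in covered bases was 51 bp with equal lists, 0 bp with the top 50%, with at least 200 bp and with gene spans alone, and 72 bp with 50 kb. The U2OS share at 7q32 was 0% with equal lists, the top 50% and at least 200 bp, and at 6q24 it was 100% with the top 50% and at least 200 bp. DIRAS3 and NAP1L5 had no hotspots and give no share, and 14q32 and ZDBF2 give none under the settings that leave them empty. The cause of these shifts was not tested beyond the smaller or larger number of hotspots that each setting holds by construction.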
